A study of Mus musculus with 12 samples.

Results

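The genes described here are those that copy DNA and carry cells through S phase, 48 in number, taken by name from 9 role groups that run from the origin recognition complex to chromatin assembly behind the fork. Of these, 46 were measured by a probe set that carries that gene alone, and they stand among 12393 genes with such a probe set. Gins2 and Chaf1a were not analysed here. Each gene is represented by the probe set with the highest mean log2 signal over the 12 arrays, a choice that does not depend on the groups. There were 82 probe sets for the 46 genes, and 26 genes had several.

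The study asked which genes change early after NUP98-HOX fusion genes enter primitive bone marrow cells. Bone marrow came from (C57Bl/6Ly-Pep3b×C3H/HeJ) F1 mice aged over 12 weeks, 4 days after a dose of 150 mg/kg 5-fluorouracil, was held for 48 hours in IL-6 at 10 ng/mL, IL-3 at 6 ng/mL and stem cell factor at 100 ng/mL, spent 2 days with irradiated GP+E86 virus producer cells and was cultured for 24 hours more. Sca-1+ Lin- GFP+ cells were then sorted, so all groups share the drug, the cytokines, the virus and GFP. The ND13 group received NUP98-HOXD13, the NA10 group NUP98-HOXA10, the ND13(N51S) group the same NUP98-HOXD13 with a homeodomain mutation presumed to remove DNA binding, and the GFP control group the MIG vector with GFP only, with 3 arrays in each of the 4 groups. The fusions were expressed from an MSCV retroviral vector, and the cells were a sorted mixture of primitive cells and not a clone. The methods call the arrays biological triplicates, and whether an array holds the cells of 1 mouse or of several is not given in the sources used here.

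Before S phase, the origin recognition complex, Cdc6 and Cdt1 load the ring-shaped MCM helicase onto DNA. Cyclin E and the Cdc7-Dbf4 kinase then trigger Cdc45 and GINS to join it, after which polymerases, the sliding clamp and ligase copy and seal the strands. Many of these genes are switched on together by E2F factors at the passage of cells out of G1, so their transcripts are commonly read as a sign of how many cells in a population are entering S phase. Blood stem cells are mostly quiescent in the marrow, and 5-fluorouracil followed by cytokines draws them and their progenitors into division. In such a bulk sample, fewer cells in S phase and less RNA of these genes per cell cannot be told apart.

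Because E2F is the shared regulator that textbooks give for this set, promoters of the genes were examined in the RefSeq sequences of build GRCm38.p6, from 250 bases before each transcription start to 300 bases in all. A promoter was held for 40 of the 48 genes, of which 7 had several starts. The forms searched were TTTCCCGC and TTTGGCGC, on both strands (GCGGGAAA and GCGCCAAA when read on the printed strand). Matches of the 2 forms may overlap each other, and a gene was counted once. At least 1 of them was found in 10 of the 40 genes, or 25%, against 486 of 27025 genes with a promoter, or 1.8%. Among 30 mitosis and G2/M genes with a promoter it was found in 0. The CCAAT box (CCAAT or ATTGG), to which NF-Y binds, was found in 23 of 40 genes, or 57.5%, against 24 of 30 mitosis and G2/M genes, or 80.0%, and 41.1% of all genes. These are matches of letters, with no measurement of binding. The promoters of Cdc6, Mcm3 and Rfc3, which hold a match, and of Mcm2, which holds none, are printed because the array values of these genes are among those given in full. Capitals mark the match, and its first base lies at position -138 from the start of Cdc6, at 19 and 38 past the start of Mcm3 and at 0, the start itself, in Rfc3.
Cdc6 promoter, chr11:98907901-98908200 (plus strand): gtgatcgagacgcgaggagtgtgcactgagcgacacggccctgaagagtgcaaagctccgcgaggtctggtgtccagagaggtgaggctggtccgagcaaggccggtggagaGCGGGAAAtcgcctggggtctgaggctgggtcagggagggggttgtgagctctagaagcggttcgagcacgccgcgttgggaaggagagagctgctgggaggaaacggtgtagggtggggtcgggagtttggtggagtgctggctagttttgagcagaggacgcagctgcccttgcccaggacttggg
Mcm3 promoter, chr1:20820263-20820562 (minus strand): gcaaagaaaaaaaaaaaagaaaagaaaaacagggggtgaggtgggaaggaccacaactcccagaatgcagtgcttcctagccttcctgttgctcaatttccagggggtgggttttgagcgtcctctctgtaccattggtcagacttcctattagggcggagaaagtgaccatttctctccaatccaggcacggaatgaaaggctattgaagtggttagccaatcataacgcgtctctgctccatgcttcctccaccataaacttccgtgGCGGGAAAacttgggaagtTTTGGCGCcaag
Rfc3 promoter, chr5:151651159-151651458 (minus strand): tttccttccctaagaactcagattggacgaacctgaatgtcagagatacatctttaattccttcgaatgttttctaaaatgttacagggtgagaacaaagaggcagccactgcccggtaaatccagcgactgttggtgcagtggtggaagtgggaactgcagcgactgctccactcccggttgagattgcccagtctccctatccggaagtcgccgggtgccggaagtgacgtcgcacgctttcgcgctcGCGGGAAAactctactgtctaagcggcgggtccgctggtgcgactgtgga
Mcm2 promoter, chr6:88898731-88899030 (minus strand): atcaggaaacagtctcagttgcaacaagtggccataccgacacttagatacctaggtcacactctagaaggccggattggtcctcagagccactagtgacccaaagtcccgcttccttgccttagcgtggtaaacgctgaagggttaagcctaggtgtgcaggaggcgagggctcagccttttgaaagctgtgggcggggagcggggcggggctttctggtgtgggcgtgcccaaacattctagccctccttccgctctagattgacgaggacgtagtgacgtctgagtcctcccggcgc

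The arrays were MOE430A GeneChips, and the deposited MAS5 signals were scaled to an equal trimmed mean on all 12. The background of an array, set at the 95th percentile of the signals of 27 bacterial controls, ranged over 28.5 to 69.8, and 45 of the 46 genes were above it on all 12 arrays. Tyms was above it on 11. ND13(N51S) replicate 2 stood apart before any result: its Gapdh 3'-to-5' ratio was 48.87 and its beta-actin ratio 9.092, against 1.901 to 2.71 and 1.718 to 2.381 on the other 11 arrays. For GFP control replicate 1 the experiment record speaks of cells without GFP from the ND13(N51S) culture, and the label was kept. Values without either or both of these arrays are given beside the results that they move most. Among markers of the sorted fraction, Kit, Cd34 and Flt3, receptors and a surface protein of primitive cells, were above background on all 12 arrays, whereas Ly6a, which encodes Sca-1, was not analysed here. Cd4, 1 of several lineage markers against which the sort selected, was at background on all 12. Levels of the others, CD5 and CD8 among them, are not given here.

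The replication genes lay slightly below the GFP control in all fusion groups, by an amount that no single gene carried past the test. The median log2 difference of the 46 genes against the GFP control was -0.16 in ND13, -0.13 in NA10 and -0.15 in ND13(N51S), where the median over all 22626 probe sets was 0.00, -0.01 and 0.07. Over the probe sets above the median level, which are nearer to these genes in signal, it was -0.00, 0.00 and -0.01. For ND13(N51S) the median of the 46 genes was -0.26 with arrays centred on their medians and -0.23 with the mean over all probe sets of a gene. A median of -0.16 is a ratio of 0.893. In ND13 37 of the 46 genes lay below the GFP control, in NA10 35 and in ND13(N51S) 35, where 50%, 51.3% and 43.8% of all probe sets lay below it, and 50.3%, 49.9% and 50.8% of those above the median level. The 3 comparisons share the 3 GFP control arrays, and genes measured on the same arrays are not independent of each other. Seen array by array, the median deviation of the 46 genes from their own means over 12 arrays was -0.09, 0.03 and -0.06 in ND13, -0.00, 0.05 and -0.02 in NA10, 0.01, -0.01 and -0.07 in ND13(N51S) and 0.09, 0.17 and 0.12 in the GFP control. The GFP control arrays thus held the 3 highest values, and the groups of fusion arrays overlapped each other.

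Within replicate numbers the shift kept its direction, and the ND13(N51S) array numbered 1 was nearest to its control. The median of the 46 genes in ND13 minus GFP control was -0.20, -0.16 and -0.16 for numbers 1, 2 and 3. It was -0.11, -0.14 and -0.11 in NA10 and -0.05, -0.17 and -0.20 in ND13(N51S). All 9 pairs of arrays were thus below 0, though the 9 pairs use only 3 control arrays. The median for ND13 was -0.10 without ND13 replicate 1, and the median for NA10 was -0.083 without GFP control replicate 2. Without ND13(N51S) replicate 2 and GFP control replicate 1, the medians were -0.18, -0.14 and -0.14 for ND13, NA10 and ND13(N51S).

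**Figure D1:**
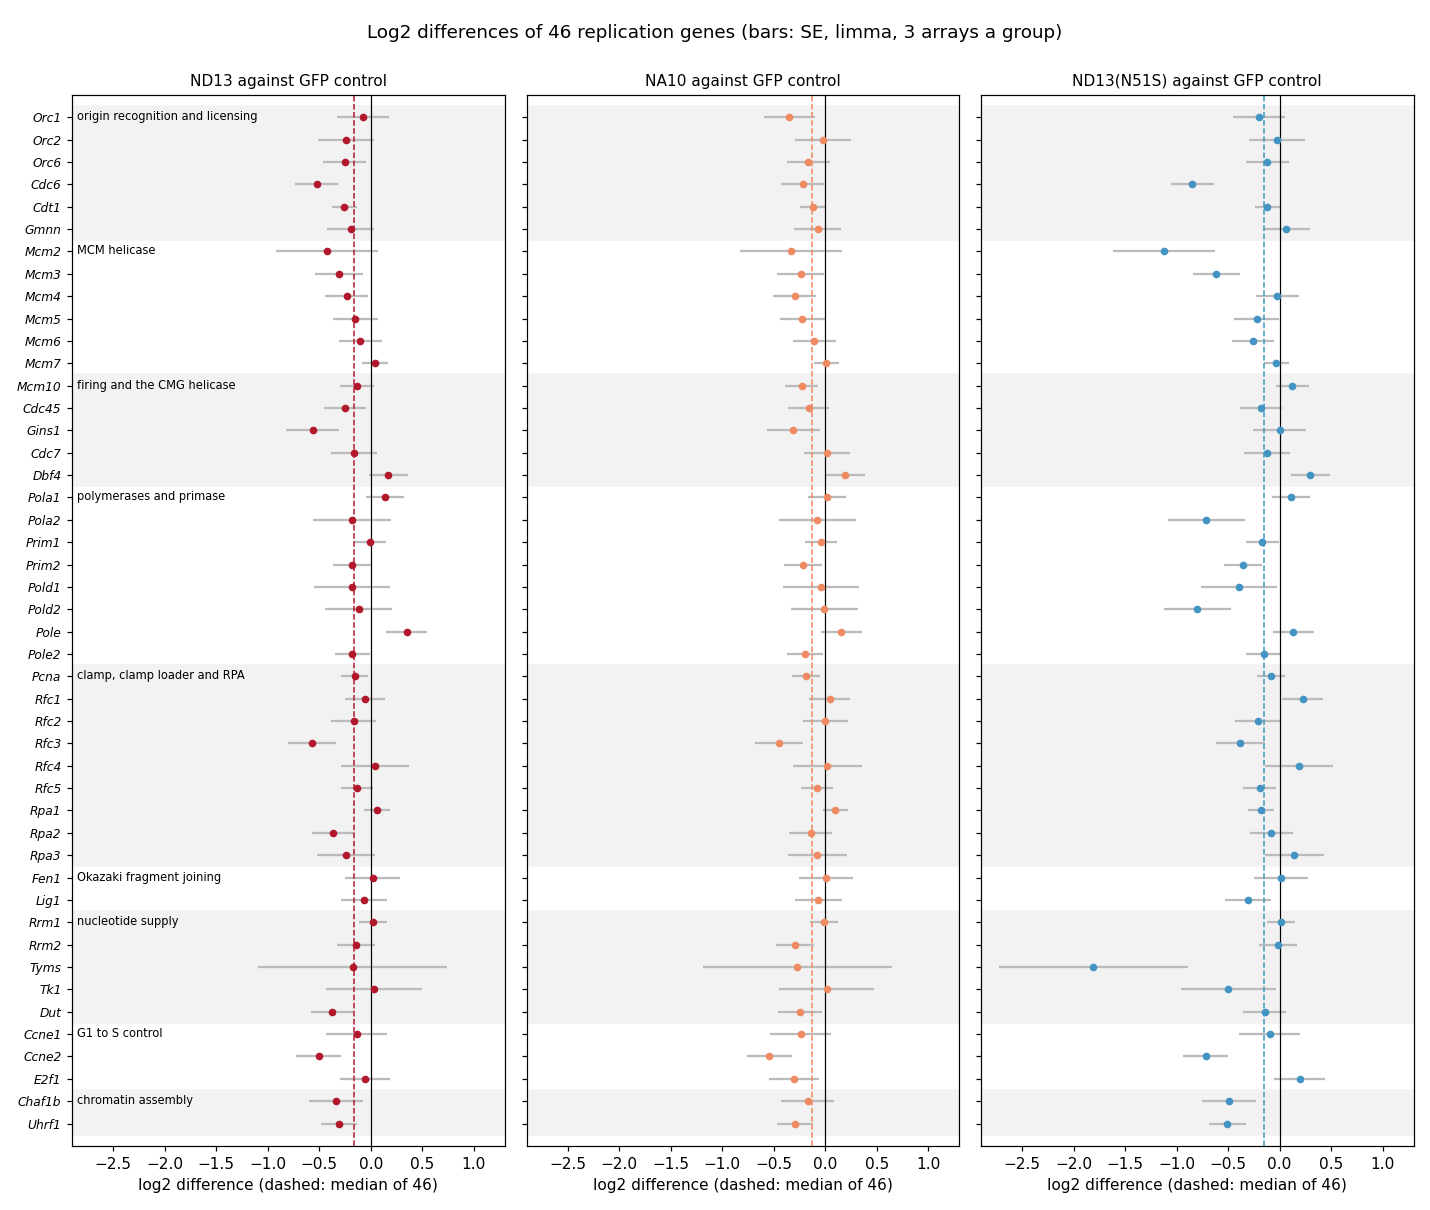
Log2 differences of the 46 genes against the GFP control (x axis) by gene (y axis, shaded by role group) for ND13, NA10 and ND13(N51S), with points for the fitted difference and bars for its SE over 3 arrays a group. Most points lie left of 0, the dashed medians stand at -0.16, -0.13 and -0.15, and the longest departures are in the ND13(N51S) panel.

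No replication gene was called in any of 6 comparisons by limma, where a call needed a Benjamini-Hochberg adjusted p under 0.05 over all probe sets and a change of 1.5-fold. Over all probe sets the share called was 0.0884% in ND13, 0.0133% in NA10 and 0% in ND13(N51S), each against the GFP control. It was 0.0133% for ND13 against ND13(N51S), 0.00884% for NA10 against ND13(N51S) and 0.0177% for ND13 against NA10. With the replicate number as a block the number of these genes called was again 0 in each comparison. The shares of all probe sets called with that block were 0.296%, 0.0398% and 0.0265% for ND13, NA10 and the mutant against GFP control, 0.0796% and 0.0442% for ND13 and NA10 against ND13(N51S), and 0.0398% for ND13 against NA10. With so few calls among all probe sets, 0 of 46 is no result about these genes. The moderated F test over the 4 groups, adjusted likewise, passed 0 of the 46 genes and 0.0442% of all probe sets. The SE of a gene's log2 difference had a median of 0.21 and reached 0.92 for Tyms, so a shift of the size of the medians was not detectable for a single gene with 3 arrays a group.

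At an unadjusted p under 0.05 in the same fit, 4 genes were lower and 0 higher in ND13 than in the GFP control, where 1.92% and 3.81% of all probe sets were. In NA10 1 gene was lower and 0 higher, where 1.66% and 2.75% of all probe sets were. In ND13(N51S) 6 were lower and 0 higher, where 2.78% and 4.88% of all probe sets were. These counts moved with single arrays: that of ND13 was 0 when GFP control replicate 1 was left out, and likewise 0 for GFP control replicate 2, and 1 without ND13 replicate 1 and 1 without ND13 replicate 3. The count of ND13(N51S) was 11 without its replicate 1, 4 without its replicate 2, 4 when the first GFP control array was left out and 3 when GFP control replicate 2 was. The methods' t-test on the same log2 values gave 8, 2 and 4 lower genes for ND13, NA10 and ND13(N51S) at an unadjusted p under 0.05, and 0 after Benjamini-Hochberg adjustment.

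Separation of the arrays can be read without a model. In ND13 9 of the 46 genes had all 3 arrays below all 3 GFP control arrays and 1 had them all above, against 5.37% and 6.84% of all probe sets. In NA10 there were 7 below and 1 above, against 5.18% and 5.6%, and in ND13(N51S) 8 below and 1 above, against 3.45% and 8.5%. As shares of the 46 genes the lower ones were 19.6%, 15.2% and 17.4%. The gene above the control was Rpa1, the large subunit of the single-strand binding protein RPA, in ND13 and in NA10, and Dbf4, the activator of the Cdc7 kinase, in ND13(N51S). An exact two-sided permutation test of 3 arrays against 3 cannot give a p below 0.1.

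**Figure D2:**
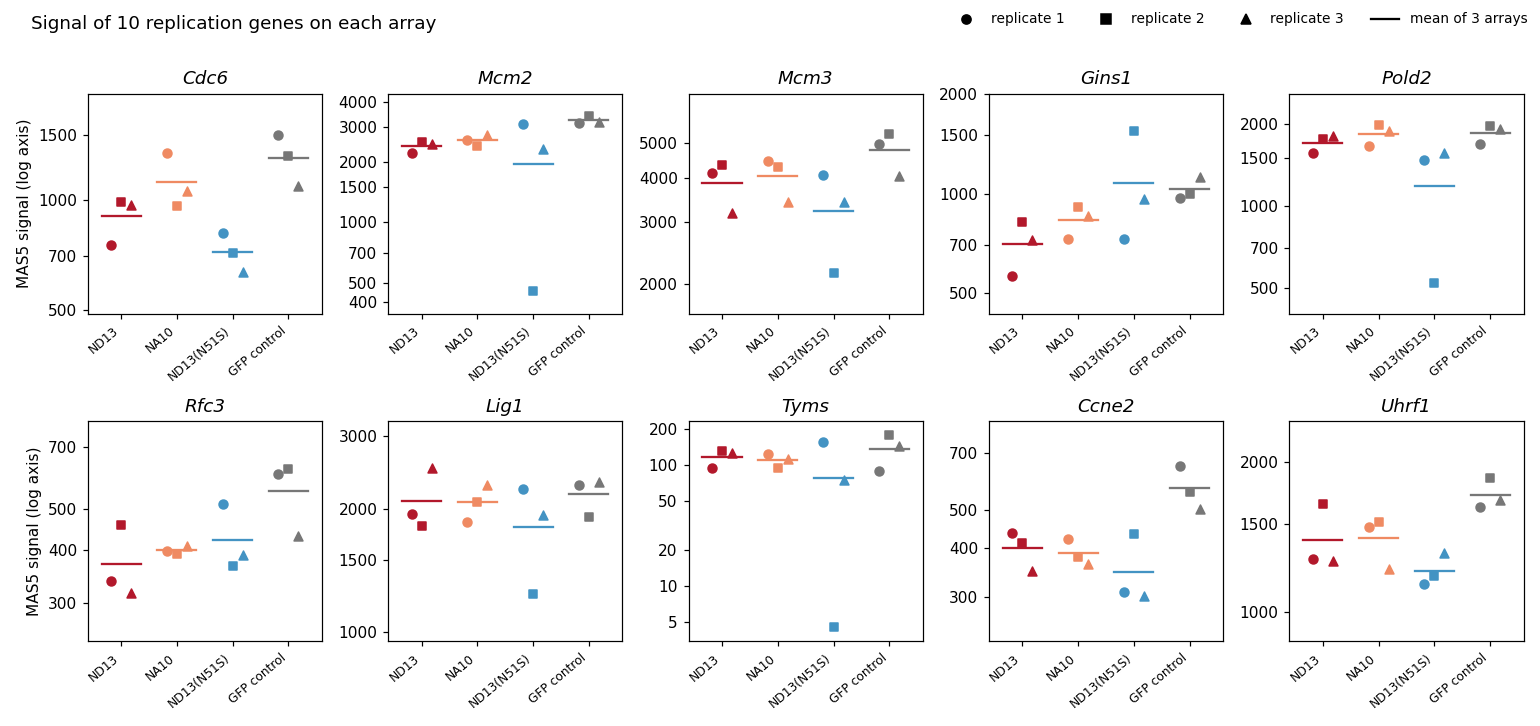
MAS5 signal (y axis, log scale) of 10 replication genes on every array by group (x axis), with a symbol for each replicate number and a bar for the arithmetic mean of 3 arrays. The 3 GFP control arrays of Ccne2 lie above all 9 fusion arrays, and ND13(N51S) replicate 2 (square) lies far below the other arrays for Mcm2, Pold2 and Tyms.

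Among the origin recognition and licensing genes, Cdc6, the ATPase that brings the MCM helicase to the origin, had the lowest p in the test over 4 groups. Its signal was 753, 984 and 965 in ND13, 1345, 963 and 1053 in NA10 and 808, 716 and 634 in ND13(N51S), against 1499, 1314 and 1087 in the GFP control. All arrays of ND13 and of ND13(N51S) lay below the GFP control arrays, while NA10 overlapped with them. The log2 difference from the GFP control was -0.53 ± 0.21 in ND13, -0.22 ± 0.21 in NA10 and -0.85 ± 0.21 in ND13(N51S) (limma, SE, n = 3 each), with adjusted p = 0.759, 1 and 0.373. Without both arrays in doubt, the ND13(N51S) difference was -0.74. Cdt1, its loading partner, is given after its values were seen, for its narrow spread: it read 4737, 4764 and 4264 in ND13, 4908, 5359.8 and 4887 in NA10 and 5100.4, 5052 and 4987 in ND13(N51S), against 5544, 5212 and 5686 in the GFP control. Its ND13 arrays lay below all 9 others, with a log2 difference of -0.26 ± 0.12 from the GFP control (limma, adjusted p = 0.879), and of -0.10 when its 3 probe sets were averaged. All 6 genes of this group, which also holds the origin subunits Orc1, Orc2 and Orc6 and the Cdt1 inhibitor geminin (Gmnn), had values below 0 in ND13 and in NA10, with medians of -0.25 and -0.14. In ND13(N51S) 5 of the 6 did, with a median of -0.12, or -0.19 without replicate 2.

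The MCM genes encode the 6 subunits of the helicase ring. Mcm2 read 2232, 2533 and 2463 in ND13, 2565, 2420.5 and 2734 in NA10 and 3095, 455 and 2314 in ND13(N51S), against 3150.0, 3381 and 3166 in the GFP control. All 9 fusion arrays were below the 3 controls, and the value of ND13(N51S) replicate 2 was 5.95-fold below the mean of the other 11 arrays on the log2 scale. The log2 differences were -0.43, -0.33 and -1.12 with an SE of 0.49 and adjusted p = 1, 1 and 0.64 in limma, and that of ND13(N51S) was -0.27 without replicate 2. A second probe set for Mcm2 gave 0.18, 0.10 and -0.35 in the same order, so the probe sets differ in sign for ND13 and NA10. Mcm3 read 4113, 4331 and 3169.7 in ND13, 4462, 4276 and 3419 in NA10 and 4077, 2145 and 3423 in ND13(N51S), against 4987, 5317 and 4044 in the GFP control. Its groups overlapped, yet within each replicate number every fusion array lay below its control. The log2 difference of ND13(N51S) was -0.61 ± 0.23 (limma, adjusted p = 0.597), and -0.35 without replicate 2. Over the 6 subunits the differences from the GFP control ran between -0.43 and 0.04 in ND13, -0.33 and 0.01 in NA10 and -1.12 and -0.02 in ND13(N51S). Mcm7 stood at the upper end in ND13 and in NA10 by its brightest probe set, with a signal of 8696 to 10608 on the 9 fusion arrays and 8470.0 to 9535 on the controls. Its 3 other probe sets lay between -0.31 and -0.14 in ND13, so the sign is not shared for this gene either.

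Of the genes that fire the origins, Gins1, a subunit of the GINS complex, read 563, 822 and 724 in ND13, 730.0, 911 and 855 in NA10 and 727, 1542 and 965 in ND13(N51S), against 969, 998 and 1122 in the GFP control. All ND13 and NA10 arrays were below the controls, and those of ND13(N51S) lay on both sides of them, with its replicate 2 the highest of all 12 arrays. The log2 difference was -0.57 ± 0.26 in ND13 and -0.31 ± 0.26 in NA10 (limma, adjusted p = 0.856 and 1). In ND13(N51S) it was -0.00 with all arrays and -0.29 without replicate 2. Cdc45, which joins GINS on the helicase, had means of 768 ± 31.3 in ND13, 832 ± 197 in NA10, 809 ± 80.5 in ND13(N51S) and 913 ± 19.1 in the GFP control (SD, n = 3 each). Dbf4 went the other way, with values of 0.17, 0.20 and 0.30 and an SE of 0.19. Neither passed the test, and both were chosen after their values were seen. The group median, over 5 genes that include the kinase subunit Cdc7 and the replication factor Mcm10, was -0.16 in ND13, -0.16 in NA10 and -0.00 in ND13(N51S), or -0.18 without replicate 2.

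The 8 polymerase and primase genes cover DNA polymerase alpha with its primase, which starts each strand, and the polymerases delta and epsilon, which extend them. Pold2, the second subunit of polymerase delta, read 1568, 1756 and 1801 in ND13, 1654, 1989.7 and 1893 in NA10 and 1480.2, 522 and 1559.7 in ND13(N51S), against 1686, 1964 and 1913 in the GFP control. ND13 and NA10 overlapped with the control, and in ND13(N51S) all arrays lay below it, replicate 2 by far. The log2 difference of ND13(N51S) was -0.80 ± 0.32 (limma, adjusted p = 0.624) and -0.28 without replicate 2. Pole, the catalytic subunit of polymerase epsilon, had the highest difference of the group, 0.35 ± 0.20 in ND13, 0.16 ± 0.20 in NA10 and 0.13 ± 0.20 in ND13(N51S) (adjusted p = 0.96, 1 and 0.884 in limma), and 0.00 in ND13(N51S) without replicate 2. The other 6 genes lay between -0.18 and 0.14 in ND13, with 5 of the 6 below 0. The group medians were -0.15, -0.04 and -0.26 for ND13, NA10 and ND13(N51S).

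The sliding clamp Pcna, the RFC clamp loader and RPA form a group of 9 genes. Rfc3, a small subunit of the loader, read 338, 460.5 and 318 in ND13, 399, 392 and 411 in NA10 and 515, 367 and 389.9 in ND13(N51S), against 606, 621 and 432 in the GFP control. Control replicate 3 was the low one of its group, so only NA10 was separated from the control. The log2 differences were -0.57, -0.45 and -0.38 with an SE of 0.23 and adjusted p = 0.773, 1 and 0.72 in limma. A second Rfc3 probe set gave -0.06, -0.09 and -0.75 in ND13, NA10 and ND13(N51S), and -0.45 for ND13(N51S) without replicate 2. Pcna itself, which lay at 9417 to 11170.1 in ND13, 9471 to 10913 in NA10 and 9208 to 11761 in ND13(N51S), against 10417 to 12179 in the GFP control, overlapped in all groups. Rpa1 read 8454, 8192 and 8327 in ND13, 8543, 8879.5 and 8273 in NA10 and 8133, 6273 and 6834 in ND13(N51S), against 7796, 8018 and 8170.4 in the GFP control. The ND13 and NA10 arrays were the highest 6 of the 12, by 0.06 and 0.10 with an SE of 0.12 (limma, adjusted p = 1 for ND13 and 1 for NA10). Its other probe set gave -0.07 and -0.05, so the sign is not shared. Pcna and Rpa1 were picked after their values were seen. The group median was -0.16 in ND13, -0.08 in NA10 and -0.09 in ND13(N51S).

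Fen1, the flap nuclease, and Lig1, the ligase that seals Okazaki fragments, did not pass the test in any group. Lig1 read 1938, 1810.2 and 2517 in ND13, 1857, 2075 and 2285 in NA10 and 2237, 1233 and 1929.9 in ND13(N51S), against 2280.1, 1908 and 2321 in the GFP control. Only ND13(N51S) replicate 2 left the common range, and the difference of that group was -0.31 ± 0.22 (limma, adjusted p = 0.76) with it and -0.06 without it. Fen1 differed from the GFP control by 0.02, 0.01 and 0.01 in ND13, NA10 and ND13(N51S), with an SE of 0.26, and by -0.24 in ND13(N51S) without replicate 2, so its sign there rests on that array. Its other probe set gave -0.13, -0.04 and -0.62, and -0.38 for ND13(N51S) without replicate 2.

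The 5 nucleotide supply genes are Rrm1 and Rrm2, the subunits of ribonucleotide reductase, Tyms and Tk1, which make thymidine nucleotides, and Dut, which removes dUTP. Tyms, the target of 5-fluorouracil, read 95.1, 131 and 127 in ND13, 123, 94.6 and 112 in NA10 and 155, 4.54 and 75.7 in ND13(N51S), against 88.8, 178 and 144 in the GFP control. This probe set is dim, and ND13(N51S) replicate 2 was not above background. The log2 difference of that group was -1.81 ± 0.92 (limma, adjusted p = 0.686) with that array and -0.28 without it. A brighter probe set that Tyms shares with its pseudogene gave -0.23, -0.21 and -0.13 in ND13, NA10 and ND13(N51S). Rrm2 differed by -0.15, -0.30 and -0.02 (SE 0.19), Rrm1 by 0.02, -0.01 and 0.02 (SE 0.13) and Dut by -0.37, -0.25 and -0.15 (SE 0.21). These 3 were picked after their values were seen. The other Rrm2 probe sets gave -0.39, -0.43 and -0.36, and -0.41, -0.56 and -0.30. For ND13(N51S) without replicate 2 they gave -0.20 and -0.36. Rrm1 encodes the large subunit with the catalytic site, and its second probe set gave -0.26, -0.29 and -1.34 in the same order, and -0.11 for ND13(N51S) without replicate 2. Without that array Rrm2 and Dut differed by -0.19 and -0.34 in ND13(N51S) by their brightest probe sets. A second, dimmer Dut probe set gave -0.99, -0.68 and 0.17 in ND13, NA10 and ND13(N51S). For ND13(N51S) without replicate 2 it gave 0.02, so the sign is not shared in that group.

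Ccne2, which encodes cyclin E2 of the kinase that starts S phase, was, with Mcm2, 1 of the 2 genes whose 3 controls lay above all 9 fusion arrays. It read 438, 413 and 350.3 in ND13, 423, 379 and 366 in NA10 and 310.0, 435 and 302 in ND13(N51S), against 649, 555 and 503 in the GFP control. All 9 fusion arrays, 302 to 438, were below the 3 controls. The log2 differences were -0.51, -0.54 and -0.72 with an SE of 0.22, adjusted p = 0.808, 1 and 0.48 in limma. Without GFP control replicate 1 they were -0.41, -0.44 and -0.62, and without ND13(N51S) replicate 2 the last was -0.89. Its sister gene Ccne1, for cyclin E1, differed by -0.14, -0.24 and -0.10 with an SE of 0.30. E2f1, the activating transcription factor of the set, differed by -0.05, -0.30 and 0.19 with an SE of 0.24. A dimmer E2f1 probe set gave 0.20, -0.35 and -1.03, and -0.24 for ND13(N51S) without replicate 2, so the sign is not shared in ND13 and ND13(N51S).

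Uhrf1, which brings the maintenance methyltransferase to newly copied DNA, read 1274, 1644 and 1266 in ND13, 1481, 1515 and 1219.5 in NA10 and 1135, 1177 and 1312 in ND13(N51S), against 1624, 1855 and 1672 in the GFP control. The NA10 and ND13(N51S) arrays lay below the controls, and 1 ND13 array reached into their range. The log2 differences were -0.31, -0.29 and -0.51 with an SE of 0.18 and adjusted p = 0.967, 1 and 0.576 in limma. A second, dimmer probe set gave -0.25, -0.61 and -2.02, and -0.68 for ND13(N51S) without replicate 2. Chaf1b, a subunit of the chromatin assembly factor CAF-1, differed by -0.34, -0.17 and -0.49 with an SE of 0.26, and the last was -0.22 without ND13(N51S) replicate 2.

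By the brightest probe sets, the genes with 1.5-fold differences at an unadjusted p under 0.05 were confined, among the 6 comparisons, to those with ND13(N51S). A dimmer Dut probe set also met this limit in ND13 against the GFP control, at -0.99 (limma, unadjusted p = 0.0346). Against the GFP control there were 5 lower (Cdc6, Mcm2, Mcm3, Pold2 and Ccne2), or 10.9% of the 46, where 2.48% of all probe sets were. Without ND13(N51S) replicate 2 the differences of Mcm2, Mcm3 and Pold2 shrank to -0.27, -0.35 and -0.28, and those of Cdc6 and Ccne2 were -0.85 and -0.89. On that array the 46 genes scattered in both directions: 13 were at their lowest of the 12 arrays and 12 at their highest. Of all probe sets above the median level, 25.6% and 21.4% were so on that array, and the shares of the 46 genes are near that background. Tk1 read 549 there and 1728 to 2839 elsewhere, which turns its ND13(N51S) difference of -0.50 into 0.24 when the array is left out, and Pola2, the second subunit of polymerase alpha, 274 there and 716 to 1091 elsewhere. The part of the high 3'-to-5' ratios in these values was not tested.

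Set against each other, the fusion groups had medians near 0 by the brightest probe sets. Those against ND13(N51S) were above 0 by the mean over all probe sets of a gene, with its replicate 2 included. The median of the 46 genes was 0.02 for ND13 against ND13(N51S), 0.00 for NA10 against ND13(N51S) and -0.02 for ND13 against NA10, with 21, 22 and 24 genes below 0. With the mean over all probe sets of a gene it was 0.15, 0.19 and -0.04. That mean takes in dimmer probe sets that moved far on ND13(N51S) replicate 2. In ND13 against ND13(N51S), the second Rrm1 probe set gave 1.07 with that array and -0.16 without it. The second Prim1 probe set gave 0.06 and 0.46. The mean over probe sets was not fitted without that array. At an unadjusted p under 0.05, 1 gene (Gins1), 4 genes (Cdc6, Mcm10, Pold2 and Rpa1) and 0 genes differed, where 7.87%, 8.6% and 3.52% of all probe sets did. Gins1 differed by -0.56, and by -0.27 without ND13(N51S) replicate 2. The share of 4 in 46 is 8.7%, near that background. Of the 4, Cdc6 and Pold2 were also 1.5-fold higher in NA10, where 2.94% of all probe sets were. Cdc6 was higher in every NA10 array than in every ND13(N51S) array, by 0.63 ± 0.21 (limma, adjusted p = 0.431). Pold2 differed by 0.79 ± 0.32 (adjusted p = 0.537) and by 0.28 without ND13(N51S) replicate 2. Between ND13 and NA10 the differences of all 46 genes lay between -0.31 (Cdc6) and 0.27.

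**Figure D3:**
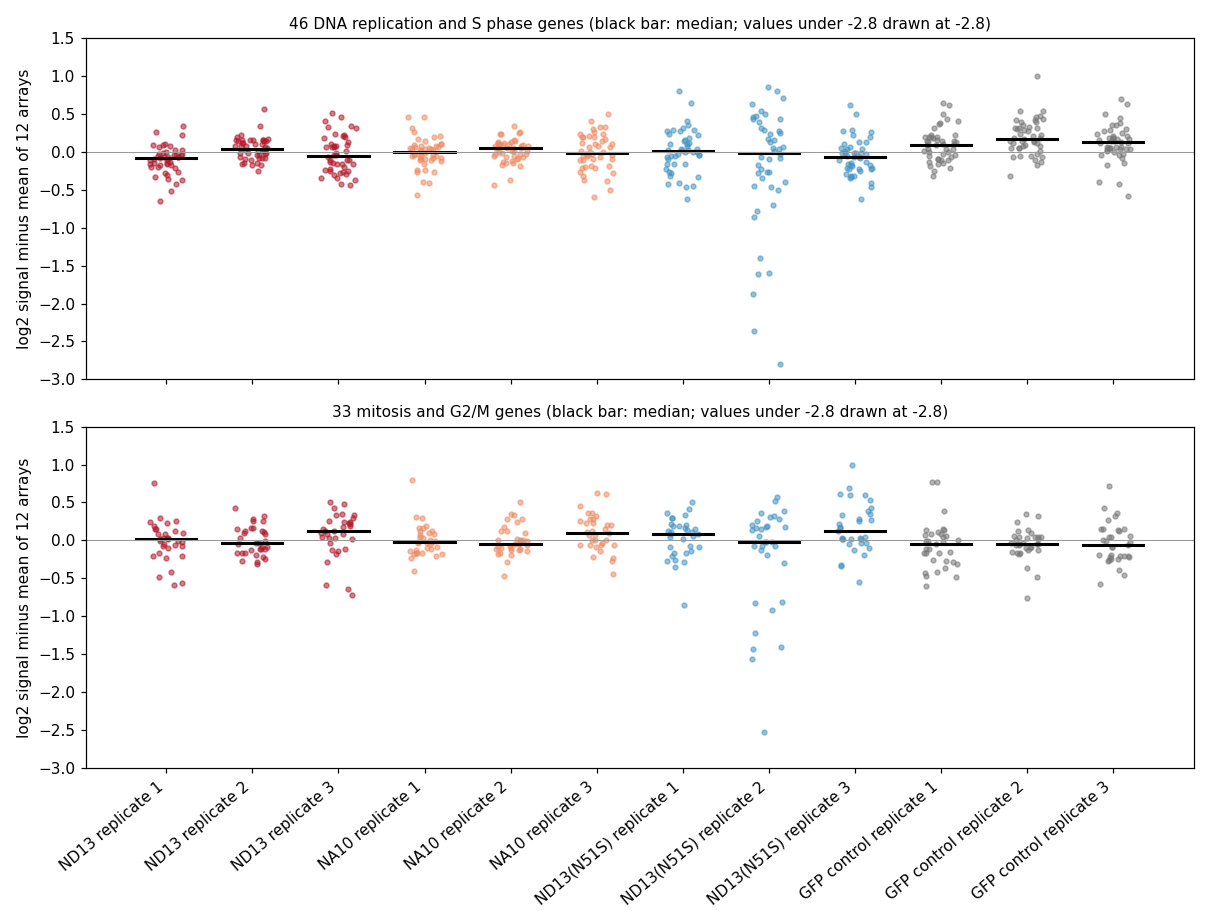
Log2 signal of each gene minus its mean over 12 arrays (y axis) on each array (x axis), for the 46 replication genes above and 33 mitosis and G2/M genes below, with a black bar for the median and 1 value (Tyms) drawn at the lower edge. The medians of the 3 GFP control arrays are the highest for the replication genes, at 0.09, 0.17 and 0.12. For the mitotic genes they lie under 0, as do those of some fusion arrays, NA10 replicate 2 (-0.046) among them. ND13(N51S) replicate 2 has the widest spread in both.

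Among neighbouring processes, mitosis genes had medians above 0 and other S phase genes medians below it. The 33 measured of 36 mitosis and G2/M genes, whose products build the spindle and separate the chromosomes, had medians of 0.04, 0.07 and 0.10 in ND13, NA10 and the mutant when set against GFP control. Mki67, the proliferation antigen, picked after its values were seen, read 5222, 4221 and 4546 in ND13, 4847, 4266 and 4282 in NA10 and 4737, 5546 and 4351 in ND13(N51S), against 4024, 3956 and 3883 in the GFP control. All 9 fusion arrays of Mki67 were thus above the 3 controls, and 0 of the 33 genes passed the adjusted test in limma. At an unadjusted p under 0.05 and 1.5-fold in limma, 1 gene passed in each comparison. It was Cdc25c, higher in ND13 and in NA10, and Cenpe, lower in ND13(N51S). By that rule 3.43% of all probe sets were higher and 1.5% lower in ND13. The shares were 2.51% and 1.52% in NA10 and 4.37% and 2.48% in ND13(N51S). Further fork and origin genes (19 measured of 26) had medians of -0.10, -0.05 and -0.04. Further nucleotide synthesis genes (17 of 20) had -0.10, -0.00 and -0.04, and S phase chromatin and histone genes (15 of 16) -0.13, -0.08 and -0.01. In limma 0 genes of these 3 lists passed the adjusted test in these comparisons, with or without the block. At an unadjusted p under 0.05 and 1.5-fold in limma, 1 gene passed (Mcmbp, lower in ND13(N51S)). Without ND13(N51S) replicate 2 the ND13(N51S) medians were 0.16 for mitosis and G2/M, -0.13 for fork and origin, -0.09 for nucleotide synthesis and -0.12 for chromatin and histone genes, and Mcmbp differed by -0.31. The difference between the replication genes and any of these lists was not tested.

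Upstream of S phase, the other G1 to S regulators (22 measured of 25) had medians of 0.10, -0.02 and 0.10. At an unadjusted p under 0.05 and 1.5-fold in limma, 2 were higher and 1 lower in ND13. The counts were 0 and 1 in NA10 and 1 and 2 in ND13(N51S), and 0 passed the adjusted test without a block. In ND13 the 2 higher genes were the CDK inhibitors Cdkn1a and Cdkn1b, with log2 differences of 0.75 ± 0.30 and 0.88 ± 0.31. In ND13(N51S) the CDK inhibitor Cdkn2c had 0.76 and the CDK phosphatase Cdc25a -0.88, or -0.58 without replicate 2. The gene lower in all 3 groups was Mycn, and these genes were named after their values were seen. Mycn, a Myc family transcription factor that drives proliferation, read 4537, 4397 and 6598 in ND13, 5042, 3306 and 6155 in NA10 and 3322, 3351 and 4000.4 in ND13(N51S), against 8754, 8828 and 12180.0 in the GFP control. All 9 fusion arrays were below the controls, with log2 differences of -0.95, -1.07 and -1.47. The adjusted p in limma was 0.29, 0.358 and 0.206 without a block, and 0.0196, 0.0219 and 0.00482 with the replicate number as a block. The p53 targets (11 of 12) had medians of 0.06, 0.06 and 0.23, and 0 passed the adjusted test in limma. At an unadjusted p under 0.05 and 1.5-fold in limma, 2 of them were higher in ND13 and 1 in NA10. In ND13(N51S) 1 was higher and 1 lower. Over all probe sets, the background for both lists, that rule passed 3.43% higher and 1.5% lower in ND13. It passed 2.51% and 1.52% in NA10 and 4.37% and 2.48% in ND13(N51S).

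Markers of other cell types differed between the same groups. The summed signal of 5 macrophage markers (Csf1r, Adgre1, Cd68, Lyz2 and Mrc1) was 6584 to 10187 in ND13, 5179 to 5860.1 in NA10 and 6054 to 14787 in ND13(N51S), against 3853 to 7171 in the GFP control, and all 5 were above background on all 12 arrays. Of the 5, values were above 0 for 5, 4 and 5, with medians of 1.21, 0.76 and 1.0. Adgre1, the F4/80 antigen, passed the adjusted test in ND13 with the block. The summed signal of 4 mast cell and basophil markers was 2678 to 2976 in ND13, 2597 to 4550.4 in NA10 and 4209 to 7251 in ND13(N51S), against 2115 to 3488 in the GFP control, and that of 5 megakaryocyte markers was 5405 to 6902, 6527 to 7036 and 5391 to 8795, against 2845 to 4822. Summed neutrophil markers (7 of 8) overlapped between the groups, at 4246 to 14624 in ND13, 5983 to 13639 in NA10 and 10078 to 16310.1 in ND13(N51S), against 8664 to 13073 in the GFP control. Summed fibroblast markers were 695 to 1336, 928 to 1396 and 1357 to 2195, against 1070.1 to 1381. The part of these cells in the shift of the replication genes was not tested. Ebf1 and Pax5 of the B cell list and Cd3d and Cd4 of the T cell list were at background on all 12 arrays. So was Alas2 of the erythroid list. Whether the other genes of these lists were above background is not given here. The measured erythroid genes had median differences from the control of -0.09 in ND13, -0.24 in NA10 and 0.72 in ND13(N51S). In ND13(N51S) all 4, Alas2 among them, were above 0, and the median was 0.57 without replicate 2. For the B cell genes the 3 medians were -0.29, -0.21 and -0.05, and for the T cell genes 0.13, -0.06 and 0.20. The primitive cell list (6 measured of 8), with Kit, Cd34 and Flt3, had -0.22 in ND13, 0.13 in NA10 and 0.12 in ND13(N51S). Of its 6 genes 1, 5 and 5 were above 0.

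The replicate number also went with the level of some replication genes. Rfc4, another subunit of the clamp loader, read 685, 617, 746 and 621 on the arrays numbered 3 of ND13, NA10, ND13(N51S) and the GFP control, and 925 to 1513 on the other 8 arrays, so the numbers did not overlap. In a fit with the replicate number as a term, 2 of the 46 genes, Rfc4 and Dut, passed the test of that term (limma F, adjusted p = 0.0161 and 0.0435), or 4.35%, where 5.22% of all probe sets did. The share is near the background, and both genes were picked after their values were seen. What the numbers stand for is not given in the sources used here.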

How the data were processed

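Total RNA of sorted cells was measured on 12 Affymetrix MOE430A arrays, 3 in each of 4 groups taken from the sample labels. The authors deposited MAS5 signal intensities on a linear scale, which were scaled on each array to a trimmed mean near 500.2, so a difference is relative to the other transcripts of an array. The methods also describe GC-RMA values, which were not used here. The depth of an array is its signal over background: 14446 to 17695 of the 22626 probe sets other than controls were above it. The number of arrays limits the precision.

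Of the 22690 probe sets, 64 controls were left out and 22626 were tested. GEO's platform annotation gave 1 gene for 20380 and several for 691, and 20364 of the former were matched to current symbols by gene number. Signals were floored at 0.01 and taken as log2. All 4 groups were fitted together with limma 3.58.1 (R 4.3.3; trend and robust options), and p-values were adjusted by Benjamini-Hochberg over all probe sets. A call needed an adjusted p under 0.05 and 1.5-fold. The script was tested on simulated data. Genes given array by array had at least 1.5-fold and an unadjusted p under 0.05 in some comparison (at most 3 a role), or else the lowest p over 4 groups in their role. The 48 genes and all lists were chosen with earlier results of these data known. The main limma fit held the groups only, so its SEs and p-values take no account of replicate numbers. Same-numbered arrays were treated as pairs in the differences by number and in the fits with a block. This was done because over 11241 probe sets above the median level their deviations correlated in all 18 pairs. The correlations were 0.108 to 0.595, against -0.422 to 0.106 in 36 pairs of different numbers. Over all 22626 probe sets the same check gave 0.0308 to 0.156, above 0.1 in 6 of the 18 pairs, so the pairing rests on the brighter probe sets. The alternatives were other scalings, a pseudocount of 41.5, a filter on dim probe sets, other variance models and samples, the methods' t-test, the mean over probe sets, the replicate block and leaving out arrays.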

Additional observations from a re-analysis of the deposited data

How the results depend on the processing

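Under 22 alternatives, the number of replication genes called stayed at 0 in all 132 counts. A selection of 26 differences of the genes given array by array kept their direction and their side of the threshold. These made 571 values over the alternatives, and none of them passed the threshold in any fit. Other differences of these genes were not followed over the alternatives, among them those of Rpa1 and that of Gins1 in ND13(N51S). The last lay at -0.00088 with all arrays and at -0.29 without ND13(N51S) replicate 2. With the replicate number as a block, the medians of the 46 genes against the GFP control were again -0.16 in ND13, -0.13 in NA10 and -0.15 in ND13(N51S), and the block changed no call among them. Of 132 medians, 11 moved by more than 0.0458, the SD of the array medians within groups. Centring each array on its median gave -0.24 for ND13 and -0.26 for ND13(N51S) against the GFP control and 0.087 for NA10 against ND13(N51S). The mean over all probe sets of a gene gave -0.23 for ND13(N51S) against the GFP control, 0.15 for ND13 against ND13(N51S) and 0.19 for NA10 against ND13(N51S). All of these values include ND13(N51S) replicate 2. The cause was not tested. For genes and probe sets named beside those, ND13(N51S) was also fitted without its replicate 2, an alternative chosen after seeing the data, which turned Fen1 to -0.24 and Tk1 to 0.24. Leaving out 1 array gave -0.21 (without ND13 replicate 2) to -0.10 (without ND13 replicate 1) for ND13, -0.17 to -0.083 (without GFP control replicate 2) for NA10 and -0.18 to -0.13 for ND13(N51S) against the GFP control. It gave -0.021 to 0.078 (without ND13 replicate 1) for ND13 against ND13(N51S), -0.0083 to 0.066 (without NA10 replicate 1) for NA10 against ND13(N51S) and -0.05 to -0.02 for ND13 against NA10. Over all alternatives, genes lower at an unadjusted p under 0.05 against the GFP control numbered 0 to 8 in ND13, 0 to 2 in NA10 and 3 to 11 in ND13(N51S), and genes below 0 numbered 34 to 43, 33 to 42 and 28 to 40. With 3 arrays a group and a median SE of 0.21, single genes with small differences were not resolved.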
